A study of Rattus norvegicus with 15 samples.

Results

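The 10 immune checkpoint and regulatory T cell genes Pdcd1, Cd274, Ctla4, Lag3, Havcr2, Tigit, Icos, Foxp3, Il10 and Ido1 were found by their symbols among the 20375 genes listed for rat retina. Each had 1 row. Gene expression was measured by RNA sequencing in 15 libraries of 5 groups, 3 libraries per group, made from whole retinas of wild type Sprague-Dawley rats that were 12 weeks old according to the labels, with the tissue taken at day 31. NT retinas were healthy and untreated. Sham rats were given sodium iodate (NaIO3) at 40 mg/kg, an oxidant that damages the retinal pigment epithelium and then the photoreceptors, after an intravitreal injection of vehicle without cells. The MSC, MSC-EPO and DPSC rats were given the same dose of NaIO3 after an intravitreal injection of cells. The MSCs were human mesenchymal stem cells from Wharton's jelly, and the MSC-EPO cells were such cells transduced with a lentivirus to express human erythropoietin. The third kind of cell is known here only by its label, DPSC. According to the labels, rats with xenografts were also given dexamethasone at 2 mg/kg before surgery and then cyclosporin at 10 mg/kg/day, drugs that act on T cells. The sources used here do not say that Sham rats were given these drugs, so a difference between cell-injected and Sham retinas cannot be told apart from one made by immunosuppression. Nor does any label say how the replicates of a group were kept apart, so p-values measure the spread between these libraries. NT rats were untreated, while every NaIO3 group was also injected in the eye. In a difference from NT, NaIO3 and the injection therefore cannot be told apart, nor these from cells and drugs where given.

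Immune checkpoints are receptors and ligands that set how strongly a T cell responds once its antigen receptor is engaged. CTLA-4 competes with the stimulatory receptor CD28 for CD80 and CD86, PD-1 (Pdcd1) restrains the T cell when it binds PD-L1 (Cd274), and LAG-3, TIM-3 (Havcr2) and TIGIT are further inhibitory receptors, while ICOS is stimulatory. FOXP3 is the transcription factor that defines regulatory T cells, which carry much CTLA-4 and ICOS, and IL-10 and the tryptophan-degrading enzyme IDO1 dampen immune responses. A healthy retina holds resident microglia and very few lymphocytes. TIM-3 and PD-L1 are also made by cells other than T cells, TIM-3 by macrophages and microglia among them.

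Values are given as rlog values, the regularized log2 values that the authors made with DESeq2. They are corrected for library size and drawn toward each gene's mean, so that differences between low values are understated. They are not per length, so levels are compared between libraries for 1 gene and never between genes. Because no counts were used, the depth is unknown. The retina label held: the rod transducin gene Gnat1 was between 14.71 and 18.04 in the 15 libraries. The library MSC replicate 1 stood apart from its group in lymphocyte and myeloid markers, and 9 of the 10 members, all but Pdcd1, had their highest value in it. For the members that varied, fold changes of MSC compared with NT are given with and without it. Where genes of the other lists rose in MSC, their number is given both ways. Fold changes of the genes named there include it, and which of them pass without it is not stated.

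Promoters are shown for the 3 members that rose past the thresholds in at least 1 comparison below, Ctla4, Icos and Havcr2, so that the stretch in front of each can be read beside its values. They are RefSeq sequences of build GRCr8, a later build than the Rnor_6.0 of the files, from 250 bases before to 50 bases after the start of the gene. Sequences were found for 7 of the 10 members. All 3 lie on the plus strand, Ctla4 at chr9:69813171-69813470, Icos at chr9:69877549-69877848 and Havcr2 at chr10:31383675-31383974, so that Ctla4 and Icos are on the same chromosome. Capitals mark a match to the TATA box letters, TATAAA, in Ctla4 and, on the minus strand, in Icos. In Havcr2 they mark a match to the STAT site letters, TTCNNNGAA.
Ctla4: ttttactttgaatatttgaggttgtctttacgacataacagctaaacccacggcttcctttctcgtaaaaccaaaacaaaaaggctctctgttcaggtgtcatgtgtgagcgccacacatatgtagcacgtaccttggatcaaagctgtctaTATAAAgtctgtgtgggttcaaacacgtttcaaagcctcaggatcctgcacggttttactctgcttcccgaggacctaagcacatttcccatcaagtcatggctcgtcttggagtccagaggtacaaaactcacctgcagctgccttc
Icos: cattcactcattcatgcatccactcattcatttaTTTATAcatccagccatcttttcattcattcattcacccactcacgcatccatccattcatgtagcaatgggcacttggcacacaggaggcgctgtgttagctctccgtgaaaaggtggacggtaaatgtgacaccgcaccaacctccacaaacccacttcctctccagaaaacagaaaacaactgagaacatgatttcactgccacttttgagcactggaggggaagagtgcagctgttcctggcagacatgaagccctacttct
Havcr2: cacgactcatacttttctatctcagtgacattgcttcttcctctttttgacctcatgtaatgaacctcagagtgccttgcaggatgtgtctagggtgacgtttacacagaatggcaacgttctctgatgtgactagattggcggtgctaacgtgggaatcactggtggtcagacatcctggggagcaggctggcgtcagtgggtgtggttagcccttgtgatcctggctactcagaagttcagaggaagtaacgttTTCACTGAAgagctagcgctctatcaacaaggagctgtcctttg
The motif TATAAA began at position -98 in Ctla4 and at -216 in Icos, and TTCNNNGAA began at 7 in Havcr2, counted from the start of the gene. In Ctla4 this start falls on the letters atg. Its positions may therefore be counted from the coding start, and may not compare with those of the others. On both strands, TATAAA was present in the promoters of 4 of these 7 members (Cd274, Ctla4, Icos and Foxp3) and in 14.2% of all 33469 promoters of this length. It began at -188 in Cd274 and at -49 in Foxp3. These counts take a match at any position, so they do not show a TATA box in its usual place. TTCNNNGAA was present in Havcr2 only among the 7, and in 8.87% of all promoters, and the NFAT core GGAAAA in Tigit only, and in 24.7% of all. The core of the interferon-stimulated response element (GAAA and GAAA with 2 bases between), the AP-1 site TGANTCA and the NF-kappaB site (GGG and TTTCC with 2 bases between) were in none of the 7, and in 3.92%, 7.33% and 1.53% of all promoters. None of the marked sites overlapped another motif. A match describes these letters alone and does not show that a factor binds there.

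The co-receptor genes Icos and Ctla4 were even across NT and Sham and rose in the MSC group, and Foxp3, which did not pass, kept the same order of the 3 MSC libraries as both. Icos (ENSRNOG00000046196), the inducible costimulator of activated T cells, was at 3.97, 3.96 and 3.90 in NT and at 3.91, 3.91 and 3.88 in Sham. In MSC it was at 9.60, 6.32 and 4.82, so that all 3 libraries lay above every NT and Sham library. In MSC-EPO it was at 5.32, 4.64 and 4.06, also above all NT and Sham values, and in DPSC at 4.02, 4.89 and 3.84, which overlapped them. Compared with NT, Icos rose in MSC from a mean of 3.94 ± 0.04 to 6.91 ± 2.45 (SD, n = 3 per group). The difference was 2.97 on the log2 scale (SE 0.85, adjusted p = 0.0395), or 7.84-fold. Without MSC replicate 1 the log2 fold change was 1.63 (adjusted p = 0.0432), so the call held and the size was lower. The call was lost in 9 of the 15 fits that left out 1 library (each NT and Sham library, MSC replicate 2, MSC-EPO replicate 2 and DPSC replicate 1), with log2 fold changes of 2.95 to 3.27 and adjusted p-values of 0.0519 to 0.108, and with MSC and NT fitted alone (adjusted p = 0.158).

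Ctla4 (ENSRNOG00000054129), the inhibitory receptor for CD80 and CD86, was at 3.15, 3.03 and 3.18 in NT and at 3.03, 3.10 and 3.08 in Sham. It was at 5.28, 4.09 and 3.33 in MSC, at 3.65, 3.42 and 3.38 in MSC-EPO, and at 3.17, 3.55 and 3.21 in DPSC. The MSC and MSC-EPO libraries all lay above NT and Sham, and the DPSC libraries overlapped NT. Ctla4 rose in MSC compared with NT by 1.11 on the log2 scale (SE 0.34, adjusted p = 0.0493), from 3.12 ± 0.08 to 4.23 ± 0.98 (SD, n = 3 per group). Without MSC replicate 1 it was 0.59 (adjusted p = 0.0734), which passed neither threshold. The call was also lost on leaving out any other library except MSC replicate 3 and MSC-EPO replicate 3, 13 of 15 fits in all, at adjusted p-values of 0.0562 to 0.135 and log2 fold changes of 0.59 to 1.19, and with MSC and NT fitted alone (adjusted p = 0.184).

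Foxp3 (ENSRNOG00000011702), the regulatory T cell transcription factor, was at 4.20, 3.95 and 4.14 in NT and at 4.24, 4.10 and 3.94 in Sham. It was at 5.45, 4.60 and 4.27 in MSC, at 4.35, 4.32 and 4.13 in MSC-EPO, and at 4.10, 4.23 and 4.10 in DPSC. The 3 MSC values lay above NT and Sham, the lowest of them narrowly, and those of MSC-EPO and DPSC overlapped NT. The log2 fold change of MSC compared with NT was 0.67 (SE 0.22, adjusted p = 0.0698), which did not pass, and 0.34 (adjusted p = 0.148) without MSC replicate 1.

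The 3 remaining inhibitory receptors of T cells did not pass in any comparison. Lag3 (ENSRNOG00000021334), which binds MHC class II, was at 4.98, 4.96 and 5.11 in NT, 5.09, 5.14 and 5.18 in Sham, 6.76, 5.53 and 5.14 in MSC, 5.13, 5.11 and 5.70 in MSC-EPO, and 5.31, 5.37 and 5.08 in DPSC. The third MSC library was within the Sham range, and in MSC-EPO the high library was replicate 3, the lowest of its group for Icos and Ctla4. The log2 fold change of MSC compared with NT was 0.79 (SE 0.31, adjusted p = 0.125), and 0.32 without MSC replicate 1. Tigit (ENSRNOG00000056574), a receptor for PVR and nectins, lay between 1.75 and 1.84 in the 12 libraries outside MSC, 0.05 or less above its lowest value in 10 of 15. In MSC it was at 2.89, 1.90 and 1.90, so that 1 library held most of the difference from NT (log2 fold change 0.46, SE 0.19, adjusted p = 0.14). Without that library the log2 fold change of Tigit was 0.13 (adjusted p = 0.0262), past the p threshold but under 2-fold. Pdcd1 (ENSRNOG00000049797), which encodes PD-1, was at -2.25 in all 15 libraries, the lowest value of the table, shared within 0.05 by 591 genes. At that value no difference between groups can be read, and no fold change is given for it.

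Havcr2, which encodes TIM-3, was the 1 member that was higher in every NaIO3 group than in NT without overlap. Havcr2 (ENSRNOG00000031443) was at 5.07, 5.22 and 5.17 in NT and at 6.18, 6.24 and 5.78 in Sham. It was at 8.01, 6.54 and 6.29 in MSC, at 6.78, 6.19 and 6.61 in MSC-EPO, and at 5.63, 6.51 and 5.79 in DPSC. Among the 4 NaIO3 groups, MSC lay above Sham, and the others overlapped it. Compared with NT, Havcr2 rose in MSC by 1.80 on the log2 scale (SE 0.37, adjusted p = 0.00963) or 3.47-fold, and in MSC-EPO by 1.38 (SE 0.37, adjusted p = 0.0422) or 2.60-fold. In Sham the difference was 0.92 (adjusted p = 0.387) and in DPSC 0.82 (adjusted p = 0.347), neither of which passed. With Sham and NT fitted alone it was 0.92 (adjusted p = 0.0275), and with array weights 0.93 (adjusted p = 0.0111). Both were past the p threshold but under 2-fold. For DPSC the adjusted p was 0.14 with DPSC and NT fitted alone and 0.0529 with array weights. Without MSC replicate 1 the rise in MSC was 1.26 (adjusted p = 0.0141). The call in MSC held in all 15 fits that left out 1 library, and was lost with MSC and NT fitted alone (adjusted p = 0.0555). In MSC-EPO it was lost in 12 of 15, those without an NT or Sham library, any MSC-EPO library, MSC replicate 2 or DPSC replicates 1 and 3, with log2 fold changes of 1.25 to 1.55 and adjusted p-values of 0.0508 to 0.121.

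Cd274 (ENSRNOG00000016112), which encodes the ligand PD-L1, was at 6.26, 6.40 and 6.47 in NT and at 6.63, 6.62 and 6.63 in Sham. It was at 7.54, 7.21 and 6.81 in MSC, at 7.13, 7.00 and 5.99 in MSC-EPO, and at 6.42, 6.76 and 6.38 in DPSC. MSC lay above NT and Sham, Sham lay above NT, and MSC-EPO held 2 values above all Sham libraries and, in replicate 3, the lowest of the 15. The log2 fold changes compared with NT were 0.81 in MSC (SE 0.26, adjusted p = 0.0624), 0.33 in MSC-EPO, 0.25 in Sham and 0.14 in DPSC, and none passed. Without MSC-EPO replicate 3, Cd274 was 0.69 higher in MSC-EPO than in NT (adjusted p = 0.033), past the p threshold but under 2-fold. In that library the mean rlog value of 6 lens marker rows, 2 of them with the same symbol, was 11.15, against 8.09 and 8.80 in the other MSC-EPO libraries. It was higher still in DPSC replicates 1 and 3, at 12.58 and 11.85, where Cd274 was within the NT range, and it was 10.14 in MSC replicate 1, the highest library for Cd274. Of these 6 lens rows 0 were called in any comparison, though 5 were in DPSC compared with NT with array weights. The median log2 fold change of the 6 rows there was 2.94 in the fit without weights. The part of lens material in the Cd274 values was not tested.

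The soluble and enzymatic regulators varied little. Il10 (ENSRNOG00000004647), the anti-inflammatory cytokine, was at 0.46 to 0.50 in every library but MSC replicate 1, where it was at 0.78. Ido1 (ENSRNOG00000031189), which starts the breakdown of tryptophan, lay between -0.16 and -0.11 outside MSC, and was at -0.01, -0.11 and -0.16 within it. Neither passed in any comparison, and at these levels, where rlog values of low counts are drawn together, a difference would be hard to see. By group means, MSC was highest for all 9 members that varied, though for Il10 and Ido1 the difference from NT was -0.09 and -0.13 when each library was centred on its median. In the order of the group means, neighbouring groups overlapped for each of these except at 3 places, where DPSC lay above NT for Havcr2, MSC above DPSC for Tigit, and MSC-EPO above DPSC, by 0.02, for Il10.

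**Figure D1:**
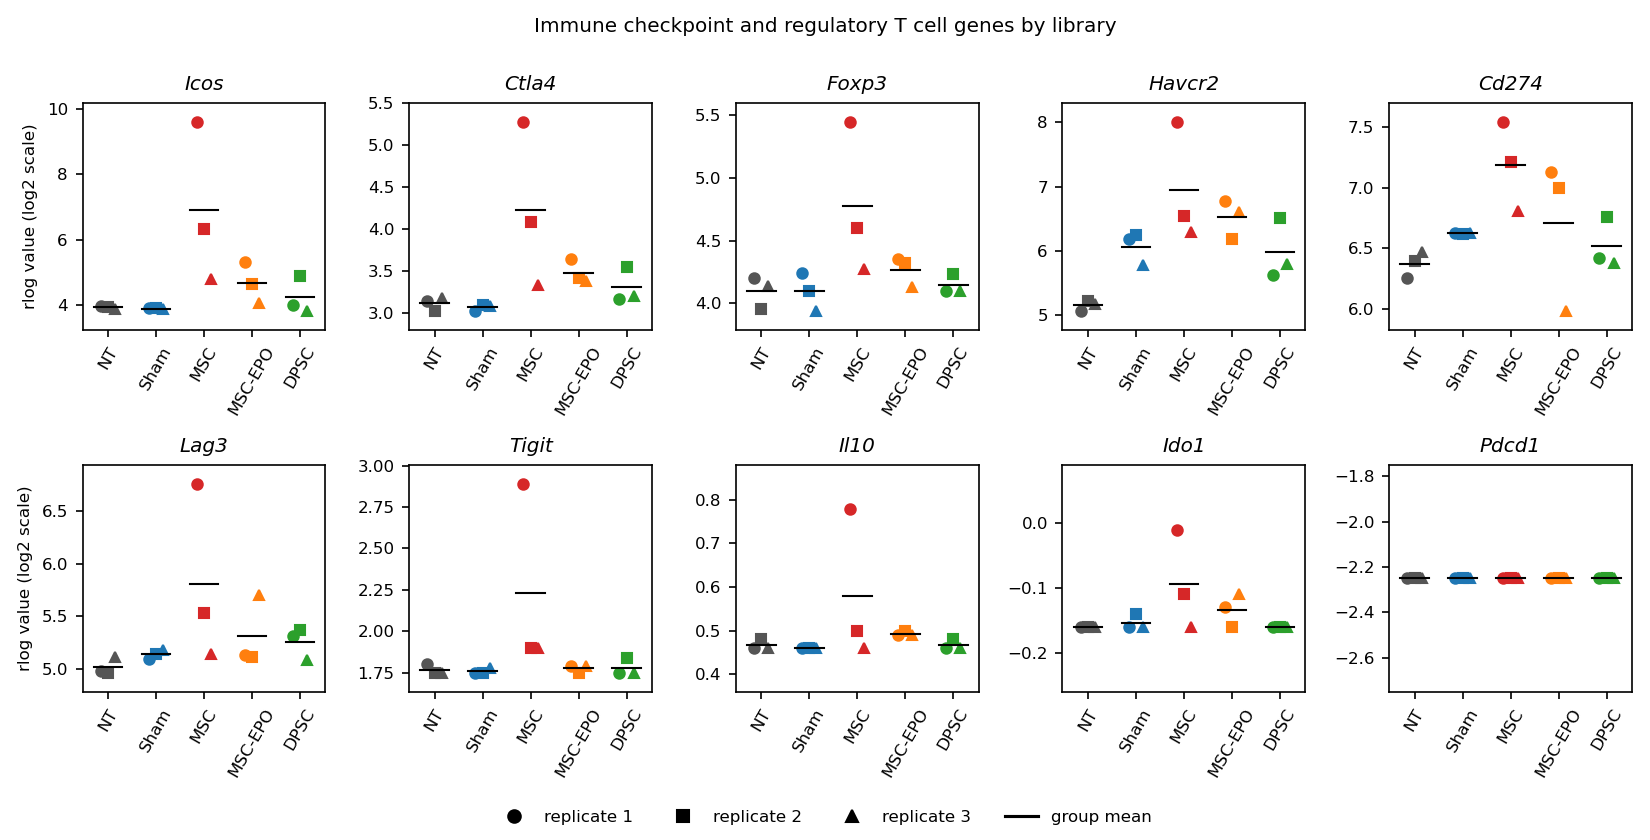
rlog values (log2 scale) of the 10 genes, 1 panel per gene with its own axis; points are libraries, with the shape giving the replicate, and lines are group means of 3 libraries. MSC replicate 1 (red circle) is the highest library in every panel but that of Pdcd1, which is flat at -2.25, and only for Havcr2 do the 3 libraries of each of the 4 NaIO3 groups all lie above those of NT.

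Counted together, 3 of the 10 members (Icos, Havcr2 and Ctla4) were called higher in MSC than in NT, with an adjusted p under 0.05 and more than 2-fold, where 4.08% of all 20375 genes were called higher. The 3 MSC libraries lay above the 3 NT libraries for 7 of 10, against 19.7% of all genes. An unadjusted p under 0.05 by limma in the higher direction was found for 8 of 10, against 15.8%. The 8 were these 7 and Ido1, which was 0.07 higher with overlapping libraries. The median log2 fold change of the members was 0.73, and that of all genes 0.00. Without MSC replicate 1, Icos and Havcr2 passed, and 2.31% of all genes were called higher. Without MSC replicate 3, the lowest MSC library for Icos, Ctla4, Foxp3, Havcr2, Cd274 and Lag3, Cd274 (1.00, adjusted p = 0.0322) and Lag3 (1.13, adjusted p = 0.0227) passed as well, 5 in all, and 5.46% of all genes were called higher. No member was called lower than in NT, and of all genes 831 were called higher and 148 lower, or 0.726%. With each library centred on its median, which moved the median of all genes by -0.20, 751 were called higher and 286 lower, and 2 members, Icos and Havcr2, were called higher.

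In MSC-EPO compared with NT, 1 of 10 members was called (Havcr2), with 1.61% of all genes called higher. Its 3 libraries lay above NT for 4 of 10 (Ctla4, Havcr2, Icos and Il10, which stayed within 0.05 of its lowest value), against 14.3% of all genes, and the median log2 fold change was 0.23. The values for Icos were 0.73 (SE 0.85, adjusted p = 0.666) and for Ctla4 0.37 (SE 0.34, adjusted p = 0.583). In Sham compared with NT, 0 of 10 were called, with 0.167% of all genes called higher, and 1, Havcr2, had an unadjusted p under 0.05 by limma, against 5.4% of all genes. Sham lay above NT for 2 of 10, Havcr2 and Cd274, against 13.9% of all genes. In DPSC compared with NT, 0 of 10 were called, with 0.348% of all genes called higher, and Havcr2 was again the 1 member with an unadjusted p under 0.05, against 7.39% of all genes. These 4 comparisons share the NT libraries.

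**Figure D2:**
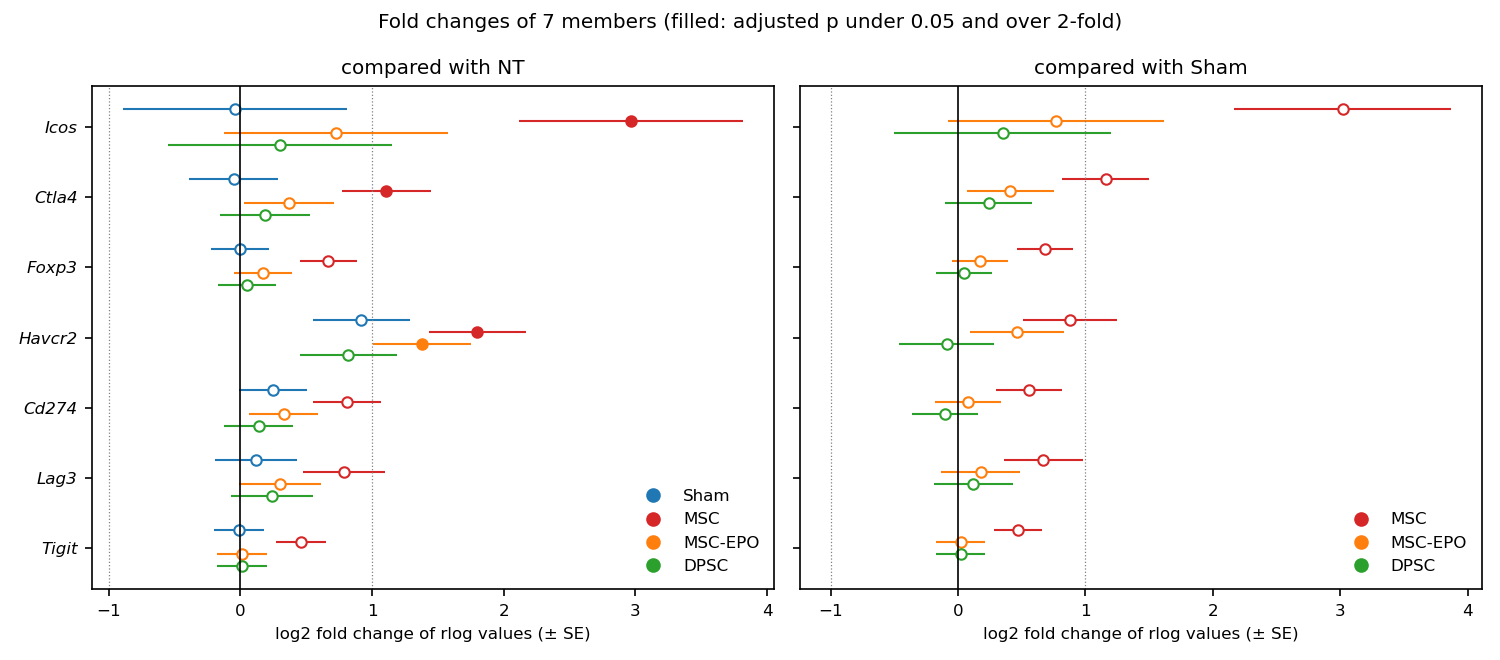
Log2 fold changes of rlog values, with SE from limma, of 7 genes in each treated group compared with NT (left) and with Sham (right); dotted lines mark 2-fold. Filled points, which passed an adjusted p of 0.05 and 2-fold, are Icos, Ctla4 and Havcr2 in MSC and Havcr2 in MSC-EPO, all compared with NT, and there are none in the panel for Sham.

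Compared with Sham, which had NaIO3 without cells, no member passed in any of the 3 cell groups, and 0% of all genes were called higher in any of them. In MSC that count was 501 genes without MSC replicate 3 and 458 with array weights, which give less weight to libraries far from their group, and in MSC-EPO it was 183 with array weights. In MSC, Icos was higher by 3.02 (SE 0.85, adjusted p = 0.177), Ctla4 by 1.16 (SE 0.34, adjusted p = 0.182), Havcr2 by 0.88 (adjusted p = 0.351), Foxp3 by 0.68 (adjusted p = 0.219) and Cd274 by 0.56 (adjusted p = 0.401). The MSC libraries lay above Sham for 6 of 10 members (those 5 and Tigit), against 12% of all genes. An unadjusted p under 0.05 by limma was found for 6 of 10, against 9.09%. These were Icos, Ctla4, Havcr2, Foxp3, Tigit and Ido1, the last at a log2 fold change of 0.06 with overlapping libraries. The fold changes of Icos and Ctla4 were as large against Sham as against NT, and the libraries of these 2 control groups overlapped. Without MSC replicate 1 they were 1.67 for Icos and 0.64 for Ctla4 against Sham, and neither passed. Without MSC replicate 3 both passed, Icos at 4.06 (adjusted p = 0.0164) and Ctla4 at 1.61 (adjusted p = 0.013), where 2.46% of all genes were called higher in the same fit. In MSC-EPO and DPSC, 0 of 10 had an unadjusted p under 0.05 against Sham, where 3.07% and 1.38% of all genes did in the higher direction. Icos differed from Sham by 0.77 in MSC-EPO (adjusted p = 0.864) and by 0.35 in DPSC.

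Between MSC-EPO and MSC, cells of the same source with and without the erythropoietin transgene, no member passed. According to the paper, the MSC-EPO cells were also transduced with a virus that carried a GFP marker, and were then sorted. The transgene cannot be told apart from these steps. The log2 fold change of MSC-EPO compared with MSC was -2.24 for Icos (SE 0.85, adjusted p = 0.774), -0.75 for Ctla4, -0.50 for Foxp3, -0.42 for Havcr2 and -0.48 for Cd274, with a median of -0.47 over the 10 members. Of these 10, 4 had an unadjusted p under 0.05 by limma, all lower in MSC-EPO (Icos, Ctla4, Foxp3 and Tigit), against 3.19% of all genes, and 0% of all genes were called in either direction. Without MSC replicate 1 the values were -0.90 for Icos, -0.22 for Ctla4 and 0.11 for Havcr2.

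**Figure D3:**
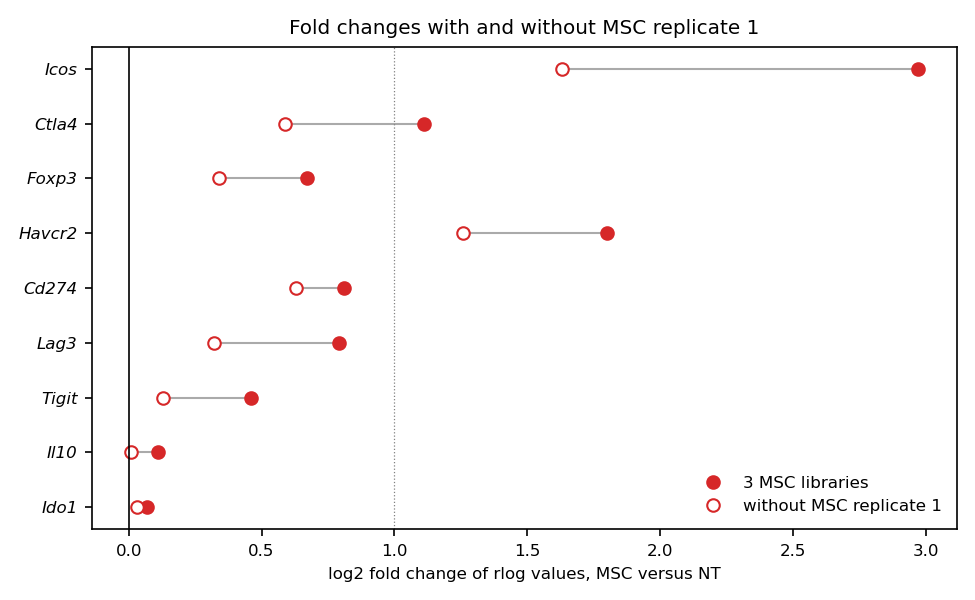
Log2 fold changes of rlog values of MSC compared with NT for the 9 genes that varied, with all 3 MSC libraries (filled) and without MSC replicate 1 (open); the dotted line marks 2-fold. Every open point lies left of its filled one, and Icos and Havcr2 stay past 2-fold at 1.63 and 1.26 while Ctla4 falls to 0.59.

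Partner genes were read from lists written by hand. Of all genes, 4.08% were called higher in MSC than in NT (2.31% without MSC replicate 1), and 1.61% in MSC-EPO. Of 12 checkpoint ligands and counter-receptors, 3 rose in MSC compared with NT (2 without MSC replicate 1): Tnfrsf14, the HVEM partner of BTLA, by 1.95 (adjusted p = 0.00704), Lgals9, a galectin that binds TIM-3, by 1.34 (adjusted p = 0.00858), and Cd86, a ligand of CTLA-4, by 1.12 (adjusted p = 0.0393). Cd276 was 0.69 higher (adjusted p = 0.00207), under 2-fold, and the median of the list was 0.57. In MSC-EPO, Lgals9 was the 1 that rose, by 1.08 (adjusted p = 0.03). Of 11 other T cell co-receptors, 5 rose in MSC (1 without MSC replicate 1), among them Tnfrsf9 (4-1BB) by 1.09 (adjusted p = 0.00624), Vsir (VISTA), an inhibitory receptor that myeloid cells carry as well, by 1.86 (adjusted p = 0.00702), Cd226, which competes with TIGIT for its ligands, by 1.38 (adjusted p = 0.0105), and Btla by 1.08 (adjusted p = 0.0122). In MSC-EPO 1 of 11 rose, Vsir, by 1.53 (adjusted p = 0.0227).

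Of 12 genes of regulatory T cells beside Foxp3, 6 were higher in MSC than in NT without overlap, against 19.7% of all genes. Of the 12, 3 rose (2 without MSC replicate 1), against 4.08% of all genes (2.31% without it). Tgfb1, the cytokine TGF-beta 1, rose by 1.80 (adjusted p = 0.00811). Il2ra, the high-affinity IL-2 receptor chain of regulatory and activated T cells, rose by 1.85 (adjusted p = 0.0118). Entpd1 (CD39), which breaks down extracellular ATP, rose by 1.34 (adjusted p = 0.0218). Tgfb1 and Entpd1 are also made by microglia and other cells. Nt5e (CD73), which turns AMP into adenosine, was lower, by -0.70 in MSC (adjusted p = 0.0223, under 2-fold) and by -1.09 in MSC-EPO (adjusted p = 0.00275), where it was called among the 0.893% of all genes called lower. The median of the list was 0.33 in MSC and 0.08 in MSC-EPO.

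Il10 itself did not pass, and 4 of 6 genes of its receptor pathway rose in MSC compared with NT, also 4 without MSC replicate 1. Among all genes, 4.08% rose in MSC, and 2.31% without that library. Stat3 rose by 1.19 (adjusted p = 0.000598), Socs3, a feedback inhibitor induced by STAT3, by 2.39 (adjusted p = 0.000675), and the receptor chains Il10ra and Il10rb by 1.67 (adjusted p = 0.00667) and 1.43 (adjusted p = 0.0134). STAT3 and SOCS3 also serve many other cytokines, and Socs3 was called in all 4 NaIO3 groups, at 1.72 in Sham (adjusted p = 0.0205), 2.35 in MSC-EPO (adjusted p = 0.000508) and 1.91 in DPSC (adjusted p = 0.0065). Of 7 genes that act beside or after Ido1 in the kynurenine pathway, 0 were called in any of the 4 comparisons with NT. The nearest was Kmo, a microglial enzyme, 0.86 higher in MSC (adjusted p = 0.027, under 2-fold). Of 6 genes of the interferon gamma axis, which induces Cd274 and Ido1 in many cells, 2 rose in MSC (1 without MSC replicate 1), among them the transcription factor Irf1 by 1.25 (adjusted p = 0.0153), and 1 in MSC-EPO. Ifng, the cytokine itself, picked for mention after its values were seen, was at a mean of -0.58 in NT, Sham, MSC-EPO and DPSC and at -0.56 to -0.39 in MSC.

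Markers of several immune cell types were read from the same kind of lists. The shares of all genes called higher than in NT were 4.08% in MSC (2.31% without MSC replicate 1) and 1.61% in MSC-EPO (2.1% without it). Of 11 T cell markers, 8 rose in MSC compared with NT (4 without MSC replicate 1), with Cd3e at 3.06 (adjusted p = 0.0209), Cd4 at 2.89 (adjusted p = 0.0119) and Lck at 2.37 (adjusted p = 0.0096), and 0 in MSC-EPO (2 without MSC replicate 1). Over all alternatives 1 to 10 were called in MSC and 0 to 4 in MSC-EPO. The mean rlog value of the list was 4.29 to 4.45 in NT, 4.44 to 4.51 in Sham, 5.22 to 7.52 in MSC, 4.78 to 5.59 in MSC-EPO and 4.47 to 5.35 in DPSC. MSC replicate 1, MSC-EPO replicate 1 and DPSC replicate 2, the highest libraries of their groups for these markers, were also the highest of their groups for Icos, Ctla4 and Foxp3, and for the mean of the macrophage and microglia, B cell, dendritic cell and NK and cytotoxic markers. All 4 B cell markers rose in MSC (0 without MSC replicate 1), with a list mean of 4.23 to 4.32 in NT and 5.93 to 9.04 in MSC. Of 6 dendritic cell markers 2 rose (0 without it), with a list mean of 4.87 to 5.04 in NT and 5.59 to 7.90 in MSC, and of 6 NK and cytotoxic markers 0 did.

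Of 8 macrophage and microglia markers, 7 rose in MSC (5 without MSC replicate 1) and 6 in MSC-EPO compared with NT. Among all genes, 4.08% rose in MSC (2.31% without MSC replicate 1) and 1.61% in MSC-EPO. In Sham 0 of the 8 were called, while the Sham libraries lay above NT for all 8, against 13.9% of all genes. The count of these markers called in MSC-EPO was 1 without any single NT library, MSC-EPO replicate 1 or MSC-EPO replicate 2, and up to 8 in other alternatives. In Sham it was 4 with Sham and NT fitted alone (0.56% of all genes called higher) and 6 with array weights (0.589%). The mean rlog value of this list was 6.70 to 7.01 in NT, 7.64 to 8.46 in Sham, 8.42 to 9.82 in MSC, 8.12 to 9.10 in MSC-EPO and 7.50 to 8.72 in DPSC, so that, as for Havcr2, every NaIO3 group lay above NT. Of 9 retina markers 3 fell in MSC compared with NT, among them the rod genes Gnat1 (-2.31, adjusted p = 0.00564) and Pde6b (-1.49, adjusted p = 0.000724), 0 rose, and the median of the list was -0.23. Likewise 3 fell in MSC-EPO and 2 in DPSC compared with NT, and 0 in Sham. The shares of all genes called lower were 0.726% in MSC, 0.893% in MSC-EPO and 0.172% in DPSC. In whole retina, more cells of a type and more RNA per cell cannot be told apart, and the part of these markers in the members' differences was not tested. Values of rlog do not show which markers had 0 reads.

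**Figure D4:**
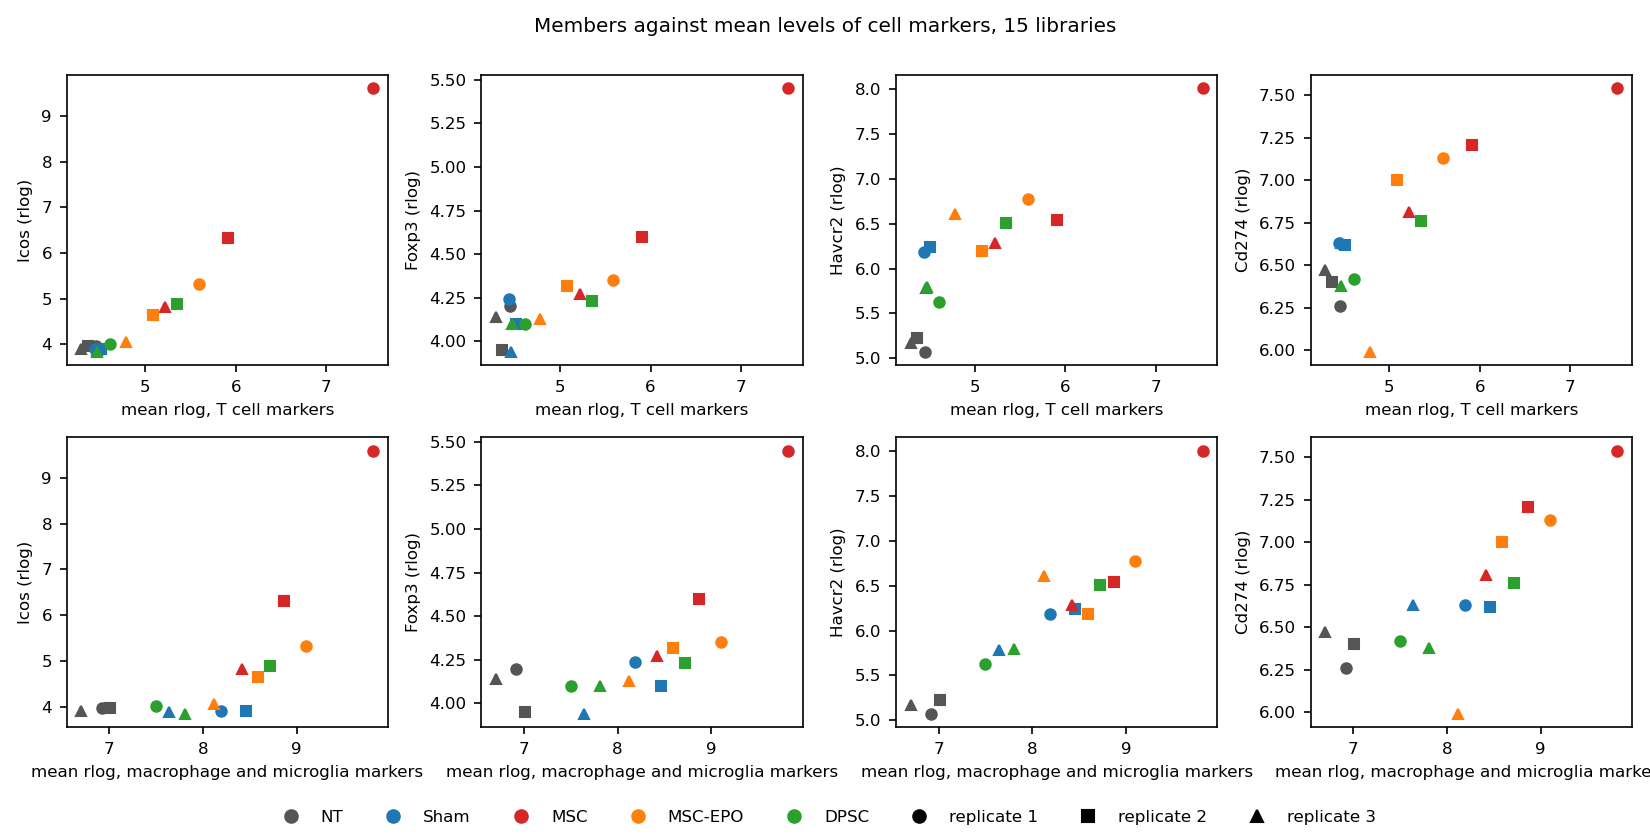
rlog values of Icos, Foxp3, Havcr2 and Cd274 (vertical axes) against the mean rlog value of 11 T cell markers (top) and of 8 macrophage and microglia markers (bottom), 1 point per library. Icos stays between 3.88 and 3.97 in NT and Sham while the macrophage and microglia mean runs from 6.70 to 8.46, and MSC replicate 1 is at the upper right of every panel.

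The genes most like each member over the 15 libraries, by Pearson's r of rlog values among 14489 genes with a symbol and a mean of at least 3.32, are given for the 6 members above that level as a description, since libraries share their treatment and the highest r of each member was lower without MSC replicate 1. For Ctla4 they were Cd2 (0.992), Txk (0.990) and Mcm10 (0.990), and for Icos P2ry10 (0.992), Cd2 (0.992) and Gimap1 (0.991). CD2 is an adhesion molecule of T and NK cells and TXK a kinase of T cells. For Foxp3 they were Batf (0.978), ENSRNOG00000017804 (0.977) and Cd247 (0.973). The neighbours of Havcr2 were Ctsz (0.983), Vsir (0.982) and Arl11 (0.980), those of Cd274 Tent5a (0.961), Itga4 (0.956) and Nhlrc3 (0.953), and those of Lag3 LOC691141 (0.973), Rgs1 (0.959) and Lat (0.953). Havcr2 and Icos had an r of 0.82 with each other, and of 0.61 without MSC replicate 1. Without MSC replicate 1, over 14 libraries, the nearest were Cd2 (0.969) for Ctla4, Il2ra (0.990) for Icos, Batf (0.896) for Foxp3, Vsir (0.978) for Havcr2, Egfr (0.952) for Cd274 and Oas1b (0.867) for Lag3. Among the members, r was 0.99 between Ctla4 and Icos and 0.97 between Icos and Foxp3, and 0.95 and 0.87 without MSC replicate 1. Between Cd274 and Lag3 it was 0.52, and -0.03 without that library.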

How the data were processed

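RNA was sequenced from whole rat retina, 3 libraries in each of NT, Sham, MSC, MSC-EPO and DPSC, and each library was placed in its group by its label. The authors mapped the reads to the rat transcriptome (Rnor_6.0) with Salmon 1.1.0, used tximport for gene-level values and DESeq2 for the rlog transformation, and deposited the resulting log2 values. No counts were used, so depth is unknown and no limit of detection is given. The retinas of cell-injected eyes could hold human cells, and how human reads mapped to rat genes was not tested. The kit is stranded, and whether counting used strand is not given in the sources used here. A table of the whole series held 15 further columns of values, a copy of the same values, and was not used.

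The values were analysed with limma 3.58.1 in R 4.3.3, with group means of the 15 libraries in 1 fit, variances moderated with a trend, no filter on low values, and Benjamini-Hochberg adjustment over 20375 genes in each of 8 comparisons. All tests were two-sided. A gene was called when its adjusted p was below 0.05 and it differed by more than 1 on the log2 scale, and "rose" or "fell" is used of called genes. The script was tested on simulated data. The members, the 13 other gene lists (103 genes looked up) and the tests were chosen with earlier results of these data known. Named are the 10 members, up to 4 genes per other list by smallest adjusted p, cell markers, and the 3 genes most like each member with a mean rlog of at least 3.32. Deviations of same-numbered libraries from their group means correlated over 0.1 in all 3 pairs for MSC-EPO and MSC (0.16 to 0.28). This held for no other of the 8 comparisons. No label gives a shared origin, so the main fit left these libraries unpaired. A fit of these 2 groups with a replicate block is among the alternatives. Alternatives are given in the closing section. A single value compared between 3 and 3 libraries cannot reach an exact permutation p under 0.1, so none is given. Some genes of these lists are not reported here.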

Additional observations from a re-analysis of the deposited data

How the results depend on the processing

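Each comparison was repeated with a filter on low values, other sets of libraries, a replicate block, another call rule, other scalings, array weights, no trend in the moderation and each library left out. An alternative without both MSC replicate 1 and MSC-EPO replicate 3 was chosen after seeing the data. Of the 10 members, 3 were called in MSC compared with NT, and 1 was called without the DPSC group (3.88% of all genes called higher), 0 with the 2 groups fitted alone (2.87%) and 1 with no trend (3.59%). For MSC-EPO compared with NT, where 1 was called, 0 were without the DPSC group (1.55%), with quantile normalization (1.26%) and with no trend (1.38%). With array weights 1 member, Icos, was called in MSC compared with Sham, and 2.25% of all genes were called higher. Leaving out 1 library gave 1 to 5 members called in MSC compared with NT, 0 to 1 in MSC-EPO compared with NT, 0 to 2 in MSC compared with Sham, and 0 to 0 in the other 5 comparisons. Over the alternatives, the adjusted p ran from 0.000216 to 0.158 for Icos, 0.000391 to 0.184 for Ctla4 and 5.31e-05 to 0.0555 for Havcr2 in MSC compared with NT, and from 0.00139 to 0.121 for Havcr2 in MSC-EPO. The causes were not tested. All groups share 1 estimate of the spread of a gene, while the SD of Icos was 0.04 in NT and 2.45 in MSC. With median centring, 70 genes were called higher and 62 lower in DPSC compared with NT, and without it 71 and 35.

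The replicate block changed no count of called members. Of 30 same-numbered pairs, 12 had a correlation of deviations over 0.1 (-0.44 to 0.65), and 6 of 15 libraries matched best with their own number, so that over all groups the samples share only a number. Between MSC-EPO and MSC, where the 3 pairs were at 0.16 to 0.28, a block with these 2 groups fitted alone, added after seeing the data, called 0 members and 0 genes (Icos -2.24, adjusted p = 0.964, and 645 genes with an unadjusted p under 0.05). With the block, Icos was at 2.97 (adjusted p = 0.0305) and Ctla4 at 1.11 (adjusted p = 0.0484) in MSC compared with NT.

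No called value changed sign. Median centring moved the median of all genes by -0.20 in MSC compared with NT. It turned Il10 (-0.09) and Ido1 (-0.13) there, Ido1 in MSC compared with Sham (-0.06), Tigit in MSC-EPO (-0.09) and DPSC (-0.10) compared with NT and in DPSC compared with Sham (-0.01), Foxp3 in DPSC compared with NT (-0.06), and Il10 (0.01) and Ido1 (0.05) in MSC-EPO compared with MSC. Quantile normalization turned Lag3 in Sham (-0.02), Tigit (-0.02) and Foxp3 (-0.02) in MSC-EPO, and Cd274 (-0.04), Tigit (-0.01) and Foxp3 (-0.07) in DPSC compared with NT, and Foxp3 in DPSC compared with Sham (-0.02). Array weights turned Foxp3 in Sham (0.00), Tigit in MSC-EPO (-0.02) and DPSC (-0.01) compared with NT, and Foxp3 in DPSC compared with Sham (0.00). Without both libraries, Lag3 turned in MSC-EPO compared with Sham (-0.02) and Cd274 (0.05), Havcr2 (0.07) and Il10 (0.01) in MSC-EPO compared with MSC. With 1 library left out, the range crossed 0 for Foxp3 (-0.08 to 0.07) and Tigit (-0.02 to 0.01) in Sham, for Tigit (-0.01 to 0.03), Foxp3 (-0.02 to 0.10) and Icos (-0.02 to 0.51) in DPSC compared with NT, for Cd274 (-0.13 to 0.44) and Lag3 (-0.02 to 0.28) in MSC-EPO and Havcr2 (-0.36 to 0.08), Tigit (-0.01 to 0.04) and Foxp3 (-0.02 to 0.13) in DPSC compared with Sham, and for Havcr2 (-0.75 to 0.11) and Il10 (-0.15 to 0.01) in MSC-EPO compared with MSC, where Cd274 ran from -0.69 to -0.12.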
